A study of Homo sapiens with 12 samples.

Results

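The genes described here belong to the enzyme families that add acetyl groups to histones or remove them, though some members act mainly on other substrates. The genes are 11 of the histone deacetylase family (HDAC1 to HDAC11), 7 sirtuins (SIRT1 to SIRT7) and 13 acetyltransferases or acetyltransferase coactivators (EP300, CREBBP, KAT2A, KAT2B, HAT1, KAT5, KAT6A, KAT6B, KAT7, KAT8 and NCOA1 to NCOA3). They were taken by name, 31 of the 59098 genes in the RefSeq annotation of GRCh38.p14, and each gene was read over its annotated span extended by 5 kb on both sides, which is called its window below. Open chromatin had been mapped with ATAC-seq, a method that lets a transposase cut and tag accessible DNA, in MIAPaCa2 (Miapaca2 in the sample labels), an established line of human pancreatic carcinoma cells grown in DMEM with fetal bovine serum. There were 4 groups of 3 libraries: parental cells left untreated, parental cells treated with sodium oxamate, an inhibitor of lactate dehydrogenase A, for a day, and the same pair of conditions in oxamate-resistant cells, which had been selected from the parental line by growth in oxamate and form a single mixed population rather than several clones. The labels name no introduced allele in any group, the untreated cells had received phosphate-buffered saline, and no label ties a library to a separate culture, so that every p-value below measures the spread between these libraries, which may be technical.

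Acetyl groups on histone tails loosen nucleosomes and are read by bromodomain and YEATS proteins at active promoters and enhancers. Acetyltransferases take the group from acetyl-CoA, the class I, II and IV deacetylases remove it by a zinc-dependent hydrolysis, and the sirtuins remove it with NAD+, so that both reactions draw on cofactors of central carbon metabolism. Lactate dehydrogenase regenerates NAD+ from NADH as it reduces pyruvate to lactate, and oxamate competes with pyruvate at that enzyme. Accessibility at a gene is not the amount of its product, and in a bulk library a region open in fewer cells and a region less open in each cell cannot be told apart.

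RefSeq start sites were at hand for 26 of the 31 genes, 44 sites in all. The 250 bases upstream of 5 of them are shown because the results below turn on those genes: HDAC7 and KAT2B, whose windows differed most between the groups, the outermost and an inner start of HDAC4, a gene with regions inside its body that were present in some groups and absent in others, and HDAC2, whose start region shifted in strength. The sequences are from RefSeq on GRCh38.p14, written 5′ to 3′ on the strand of the gene, and capitals mark GGGCGG, the GC box that Sp1 family factors bind, or its complement CCGCCC. They lie on the minus strand at chr12:47819904-47820153 for HDAC7, on the plus strand at chr3:20040196-20040445 for KAT2B, on the minus strand at chr2:239401650-239401899 and chr2:239274782-239275031 for HDAC4, and on the minus strand at chr6:113971149-113971398 for HDAC2.
HDAC7: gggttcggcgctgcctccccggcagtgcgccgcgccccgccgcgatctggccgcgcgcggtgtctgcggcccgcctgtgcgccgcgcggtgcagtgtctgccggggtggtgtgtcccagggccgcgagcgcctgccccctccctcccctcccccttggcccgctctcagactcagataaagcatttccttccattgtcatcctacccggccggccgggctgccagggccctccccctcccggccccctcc
KAT2B: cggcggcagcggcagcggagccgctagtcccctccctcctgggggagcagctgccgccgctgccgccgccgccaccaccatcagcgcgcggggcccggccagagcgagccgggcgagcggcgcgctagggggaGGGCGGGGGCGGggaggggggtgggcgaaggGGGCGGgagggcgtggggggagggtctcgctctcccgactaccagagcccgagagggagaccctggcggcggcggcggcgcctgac
HDAC4, outermost start: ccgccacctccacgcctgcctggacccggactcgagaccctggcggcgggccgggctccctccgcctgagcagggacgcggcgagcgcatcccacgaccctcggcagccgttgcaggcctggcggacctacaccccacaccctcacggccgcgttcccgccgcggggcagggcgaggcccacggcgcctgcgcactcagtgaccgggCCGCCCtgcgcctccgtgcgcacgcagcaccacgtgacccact
HDAC4, inner start: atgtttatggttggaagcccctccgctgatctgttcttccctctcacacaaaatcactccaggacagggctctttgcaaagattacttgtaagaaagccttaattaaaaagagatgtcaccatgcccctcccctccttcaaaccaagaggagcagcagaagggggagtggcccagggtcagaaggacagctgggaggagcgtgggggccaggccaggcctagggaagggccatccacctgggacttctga
HDAC2: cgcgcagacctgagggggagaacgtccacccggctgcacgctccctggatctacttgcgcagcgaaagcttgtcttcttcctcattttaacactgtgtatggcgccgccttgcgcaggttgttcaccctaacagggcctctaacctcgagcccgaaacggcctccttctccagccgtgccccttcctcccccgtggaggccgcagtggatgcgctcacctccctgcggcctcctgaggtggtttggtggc

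The upstream stretch of KAT2B was 80.8% G or C with 33 CpG pairs and 3 GC boxes, that of the outermost HDAC4 start 76.8% with 33 CpG pairs and 1 GC box, and that of HDAC7 75.6% with 28 CpG pairs and no GC box. HDAC2 had 63.2% and 18 CpG pairs. The inner HDAC4 start was of another kind, with 54.4% G or C and 2 CpG pairs. Over the 44 member starts the median was 66.4% G or C and 23.5 CpG pairs, against 62% and 16 over 22132 starts of coding genes. Searched on both strands, GGGCGG stood in 22 of 44 member stretches (50%, against 53.7% of all coding starts), CCAAT in 12 (27.3%, against 32.7%), TATAAA in 2 (4.55%, against 9%), CACGTG in 3 (6.82%, against 7.37%) and TGACGTCA in 1 (2.27%, against 2.02%). None of these motifs contains another, and a match is a description of the letters in this window only.

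The files were lists of peaks, 46401 to 63259 per library, that covered 13.8 to 33.7 Mb. The treated parental libraries covered least, 17.2 ± 2.97 Mb (SD, n = 3), against 23.7 ± 2.64 Mb in untreated parental, 28.9 ± 4.28 Mb in untreated resistant and 26.6 ± 4.77 Mb in treated resistant cells. Read counts were not part of the lists. A relative depth estimated from the peaks' own fold and p-values ran from 1.66 to 2.77 in the treated parental libraries and from 1 to 1.13 in the treated resistant ones, and the narrowest peak was 67 to 87 bp wide in parental and 94 to 124 bp in resistant libraries. Covered bases were therefore scaled to the total of each library before any test. Of the genes that mark the line, VIM, KRT8, KRT18 and GATA6 carried a peak near an end (within 1 kb) in 12 of 12 libraries and KRT19 in 10, while CDH1 had peaks inside its span alone. CDKN2A and MTAP, which this line has lost, had none in their spans, and PTPRC, CD3E, PECAM1 and INS, genes of other cell types, had none at their ends, and PRSS1 and CPA1 had such a peak in 1 library each.

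Nearly all of these genes had a peak at a start site in every library of every group. Each of the 26 genes with an annotated start had at least 1 start with a peak within 1 kb in 12 of 12 libraries (100%), against 9258 of 15812 coding genes (58.6%). Taken by gene ends, which does not need the strand, 27 of 31 members (87.1%) carried a peak near an end in 12 of 12 libraries, against 10956 of 19974 coding genes (54.9%). These counts are a description of genes chosen by name, and no test was attached to them.

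The 4 exceptions by gene end were HDAC7, HDAC9, KAT6B and NCOA2. HDAC7 had such a peak in 10 libraries, and its annotated start at 47819903 on chromosome 12 lies inside the span and had one in 12. The lower end of HDAC9, which is also a start, had a peak in 11 libraries, all but 1 treated parental library, while its other starts had one in 12. KAT6B had a peak near an end in 6 libraries but at its starts in 12. NCOA2, which encodes a p160 coactivator of nuclear receptors, had none near either end in any library and a region of 1611 bp inside the gene, chr8:70401825-70403435, in 12 of 12.

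Of the 44 start sites, 39 (88.6%) had a peak in 12 of 12 libraries. The other 5 were 3 inner starts of HDAC4, with a peak in 8, 4 and 1 libraries, the outermost start of HDAC9 with 11, and an inner start of NCOA1 with none. The far end of the gene was open less often than the start: in 12 of 12 libraries for 5 of the 26 genes with a known strand, in 1 to 11 for 9 and in none for 12. Both ends were open in 12 of 12 libraries at 6 of the 31 genes, HDAC10, SIRT5, SIRT6, SIRT7, KAT2A and KAT5. Coding genes that begin or end within 1 kb share some of this signal. Deacetylase neighbours were MARCKSL1 at HDAC1, RELL2 at HDAC3, G6PC3 at HDAC5, SLC48A1 at HDAC7 and TUBGCP6 at HDAC10. Sirtuin neighbours were RINL and NFKBIB at SIRT2, RIC8A and PSMD13 at SIRT3, NOL7 at SIRT5, ANKRD24 at SIRT6 and PCYT2 and MAFG at SIRT7. Those of the acetyltransferases and coactivators were DHX58 at KAT2A, FAM117A at KAT7, BCKDK and PRSS8 at KAT8 and SULF2 at NCOA3. Further coding genes without an end that near overlapped the wider windows. These were DIAPH1 and FCHSD1 at HDAC3, ERAS at HDAC6, MAPK12 at HDAC10, HERC4 at SIRT1 and CREB3L3 at SIRT6. Others were HSPB9 and RAB5C at KAT2A, RNASEH2C at KAT5, DUSP29 at KAT6B and TAC4 at KAT7.

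When the peaks of all libraries were merged into regions, the 31 windows held 360 of 178040 regions. Of these, 60 were present in all 12 libraries (16.7%, against 13.6% of all regions) and 203 in a single library (56.4%, against 59.5%). How often a region recurred differed by position: 29 of 34 regions at start sites (85.3%) were present in 12 libraries, 11 of 24 at other gene ends (45.8%), 5 of 21 in the flanks (23.8%) and 15 of 281 in gene bodies (5.34%). The long genes held most of the changeable regions. HDAC9, 915592 bp long, had 77 regions, of which 6 were in 12 libraries and 49 in 1, and HDAC4, 353482 bp long, had 50, of which 4 were in 12 and 33 in 1. At the short KAT5, the acetyltransferase also called TIP60, both of its 2 regions were in 12 libraries and the gene body away from its ends held no peak in any library.

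The start regions differed widely in strength. The fold over background that the peak caller reports was turned into a percentile rank among the 24148 regions present in all 12 libraries, with 100 the strongest in that library, since the fold itself depends on depth. The start of SIRT2, a mainly cytoplasmic NAD+-dependent deacetylase, had a median rank of 94.4 over the libraries (lowest 87.5, highest 98.3) and that of KAT6B, a MYST acetyltransferase, 93.7 (78.9 to 98.8). KAT7, which acetylates histones at replication origins, followed at 87 (78.1 to 96.8), HAT1, which acetylates newly made histones in the cytoplasm, at 85.5 (77.7 to 95.4) and the outermost HDAC4 start at 83.4 (60.8 to 91.9). At the other end stood HDAC7 at 12.2 (3.47 to 29.3), both ends of SIRT7 at 18.9 (9.99 to 41.5) and 20.5 (2.91 to 39.3), the KAT6A end at 21.7 (15.8 to 29.6) and SIRT1 at 22.8 (9.27 to 45.3). The ranges of these neighbours in the order overlapped, while the 5 strongest regions did not overlap with the 5 weakest. Merged over the libraries, the HDAC7 start was broad despite its low rank, 3034 bp against 978 bp at SIRT2. In single libraries it covered 300 to 2722 bp, against 740 to 923 bp at SIRT2, so that it was not the broader in every library.

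The 4 comparisons asked whether oxamate changed accessibility in parental cells and in resistant cells, and whether resistant cells differed from parental cells without and with oxamate. Windows were compared by log2 of the scaled bases under peaks plus 100 bp, with limma over 32585 genes and Benjamini-Hochberg adjustment. Between resistant and parental cells under oxamate, 3 of 31 members were called at an adjusted p under 0.05 (9.68%, against 7.14% of all genes tested), all of them higher in resistant cells (5.53% of all genes were called higher): HDAC7, KAT2B and HDAC4. Oxamate in parental cells called none (1.47% of all genes), oxamate in resistant cells none (0% of all genes) and resistant against parental cells without oxamate none (0.0767% of all genes). The members' share was thus close to that of all genes in each comparison.

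Without adjustment, p was under 0.05 for 12 of 31 members between resistant and parental cells under oxamate (38.7%, against 25% of all genes), for 6 after oxamate in parental cells (19.4%, against 16.2%), for 1 after oxamate in resistant cells (3.23%, against 2.57%) and for 3 between the untreated cells (9.68%, against 7.12%). The members' median log2 difference was 0.18, -0.05, 0.07 and 0.05 in the same order, and that of all genes 0.05, -0.03, 0.03 and -0.03. The treated parental libraries enter both the first and the second of these comparisons. Unscaled, the median of all genes moved to 0.56 in the first and -0.41 in the second, and that of the members to 0.75 and -0.49, and the split of calls among all genes between resistant and parental cells under oxamate went from 1803 higher and 524 lower (77.5% higher) to 9603 and 172 (98.2% higher). With stronger peaks alone, those with a −log10 q of at least 3, it was 3952 and 4973 (44.3% higher). The difference in response to oxamate between resistant and parental cells, tested as an interaction in the same limma fit, was called for none of the members (0.0123% of all genes) and had an unadjusted p under 0.05 for 3, HDAC3 (0.61, adjusted p 0.36), HDAC7 (1.13, adjusted p 0.39) and SIRT7 (0.72, adjusted p 0.558).

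**Figure D1:**
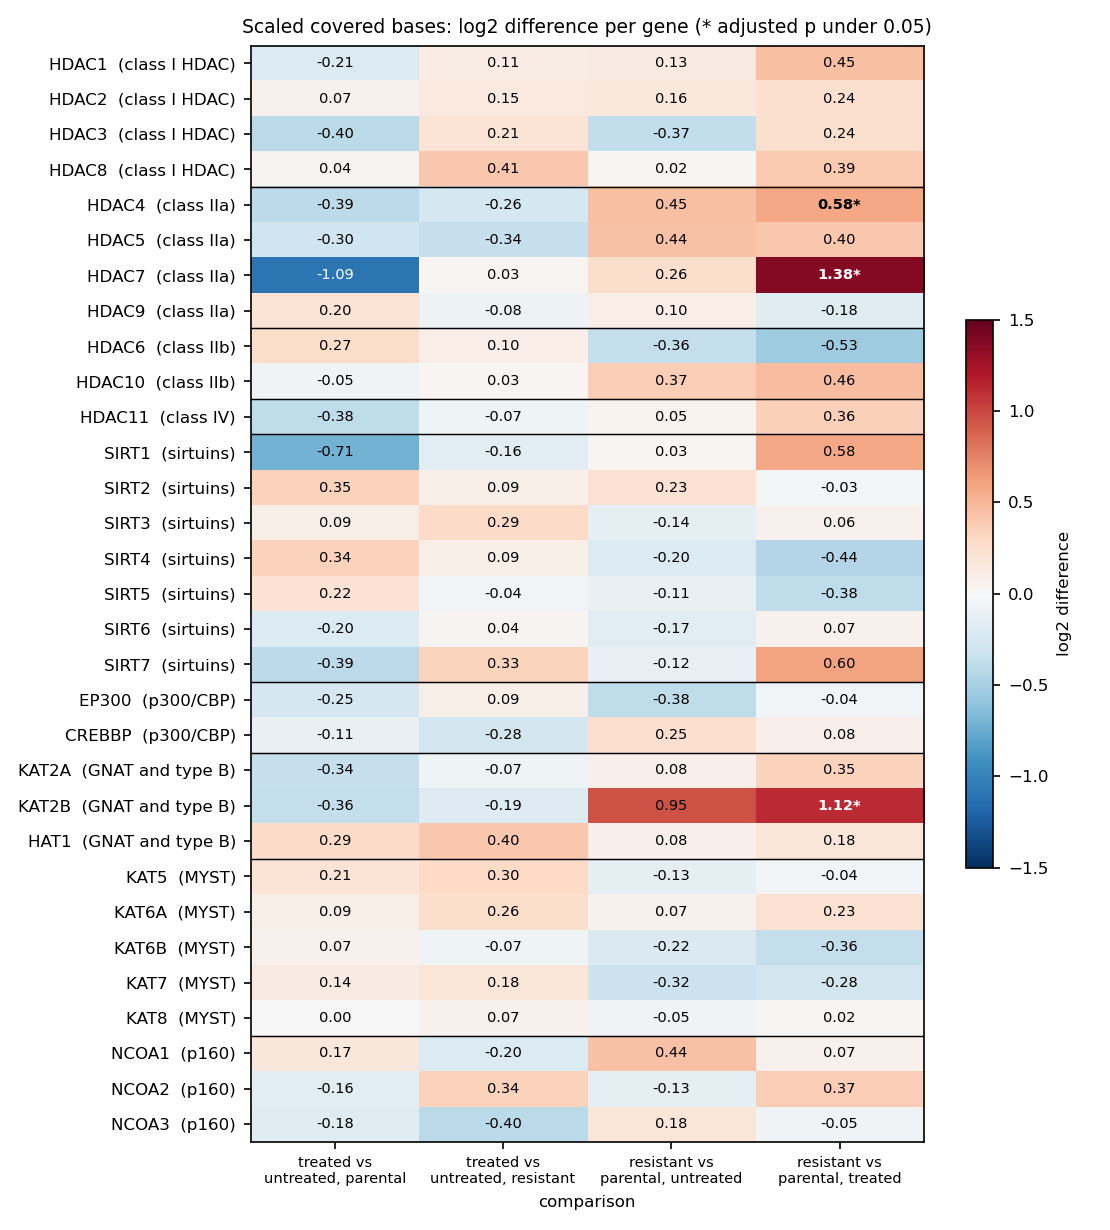
Log2 difference in scaled covered bases for each of the 31 genes (rows, by enzyme family) in the 4 comparisons (columns), from the limma fit, with the value written in each cell and an asterisk where the adjusted p was under 0.05. The 3 asterisks stand in the column that sets resistant against parental cells under oxamate, at HDAC4 (0.58), HDAC7 (1.38) and KAT2B (1.12).

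Among the class IIa deacetylases, which shuttle between nucleus and cytoplasm and act as scaffolds for corepressors, HDAC7 had the fewest covered bases in treated parental cells and about as many in treated as in untreated resistant cells. Its window held 3095, 2992 and 1806 bp under peaks in untreated parental libraries, 1071, 1062 and 478 bp in treated parental, 4288, 3613 and 3362 bp in untreated resistant and 4426, 3178 and 3052 bp in treated resistant libraries. The 3 treated parental libraries lay below the other 9. After scaling, the group means were 2635 ± 469, 1273 ± 622, 3144 ± 231.6 and 3238 ± 504.8 bp (SD, n = 3 each), and the treated parental values still lay below all others. Resistant cells exceeded parental cells under oxamate by 1.38 on the log2 scale (SE 0.27, limma adjusted p 0.0101), and this held without any 1 of the 12 libraries, with a difference of 0.99 to 1.70 and a largest adjusted p of 0.048. The fall after oxamate in parental cells was -1.09 (SE 0.27, adjusted p 0.0637), just short of the threshold, while the values were 0.03 (adjusted p 1) after oxamate in resistant cells and 0.26 (adjusted p 0.885) between untreated cells.

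Most of the HDAC7 difference lay at its start. The region at the start, chr12:47818477-47821510, had 1474, 1776 and 431 bp under peaks in untreated parental, 426, 426 and 300 bp in treated parental, 2706, 1965 and 1730 bp in untreated resistant and 2722, 1759 and 1470 bp in treated resistant libraries. Treated parental libraries were the lowest, with untreated parental replicate 3 next to them at 431 bp. The fold of the strongest peak in that region was between 3.27 and 4.74 in every library and did not separate the groups. The groups thus differed in the bases called as peak rather than in the height of the strongest peak. These bases are unscaled, and the treated parental libraries covered least in total, as given above. The part of this in the HDAC7 start was not tested. A second region 6.69 kb into the gene had 780, 416 and 702 bp, then 396, 299 and 0 bp, then 990, 960 and 878 bp, and 1007, 903 and 906 bp in the same order of groups.

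HDAC4 was also lowest in treated parental cells, with smaller differences than HDAC7. Its window held 6137, 5807 and 3942 bp in untreated parental, 2611, 3445 and 2521 bp in treated parental, 10771, 7735 and 7728 bp in untreated resistant and 8146, 4702 and 7522 bp in treated resistant libraries. Scaled means were 5325 ± 674.3, 4052 ± 651.2, 7266 ± 445.8 and 6082 ± 678.2 bp (SD, n = 3 each), and neither the 2 untreated groups nor the 2 treated groups overlapped. Under oxamate the resistant cells were higher by 0.58 (SE 0.15, limma adjusted p 0.0342). The call was lost without treated parental replicate 3, treated resistant replicate 1 or treated resistant replicate 3, with differences of 0.45 to 0.67 and adjusted p of up to 0.133 over the libraries left out, and with stronger peaks alone the difference was -0.03. Between untreated cells the value was 0.45 (SE 0.15, adjusted p 0.463), after oxamate in parental cells -0.39 (adjusted p 0.228) and after oxamate in resistant cells -0.26 (adjusted p 1).

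**Figure D2:**
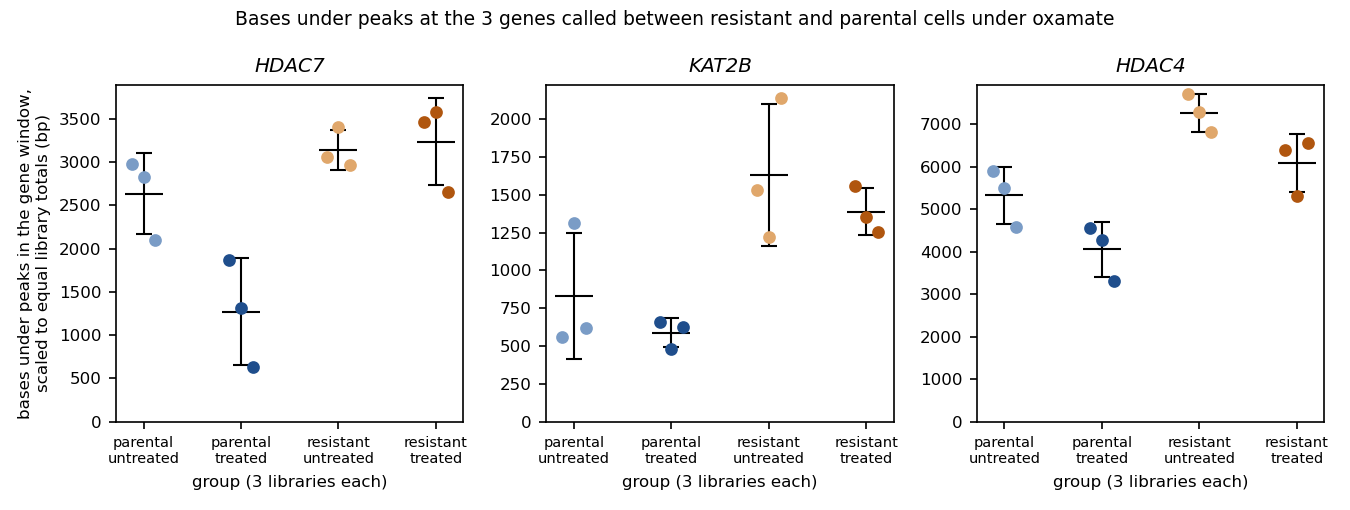
Bases under peaks in the windows of HDAC7, KAT2B and HDAC4, scaled to equal library totals (vertical axis, bp), for the 4 groups, with a point per library, a bar at the mean and whiskers of 1 SD (n = 3). HDAC7 averages 1273 bp in treated parental cells and 2635 to 3238 bp in the other groups, and KAT2B averages 588.7 and 830.4 bp in parental and 1388 and 1631 bp in resistant cells.

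The start of HDAC4 took little part in this. The region at its outermost start, the GC-rich one printed above, covered 952 to 1012 bp in untreated parental, 764 to 1008 bp in treated parental, 1047 to 1315 bp in untreated resistant and 1040 to 1312 bp in treated resistant libraries, with a fold of 6.69 to 9.38. The inner start printed above, 126.4 kb downstream, covered 1388, 1506 and 1011 bp, then 579, 917 and 922 bp, then 1493, 1313 and 1481 bp, and 1453, 1141 and 1475 bp. Inside the gene, 4 regions had a peak in 3 of 3 treated resistant libraries and in none of the treated parental libraries. The region 73.3 kb from the start, chr2:239327679-239329111, had 596, 605 and 224 bp under peaks in untreated parental, none in treated parental, 1213, 1124 and 1433 bp in untreated resistant and 1358, 417 and 584 bp in treated resistant libraries. The region 174.1 kb from the start, chr2:239226820-239228325, had 176, 439 and 93 bp, none, 1350, 524 and 698 bp, and 260, 281 and 935 bp in the same order. Both were thus present in 9 of 9 libraries outside the treated parental group. The regions at 136.6 kb, chr2:239264567-239265553, and at 257.6 kb, chr2:239143882-239144294, were present in the 6 resistant libraries and in 1 and 2 untreated parental libraries. Whether these regions lie in exons or introns was not analysed here.

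**Figure D3:**
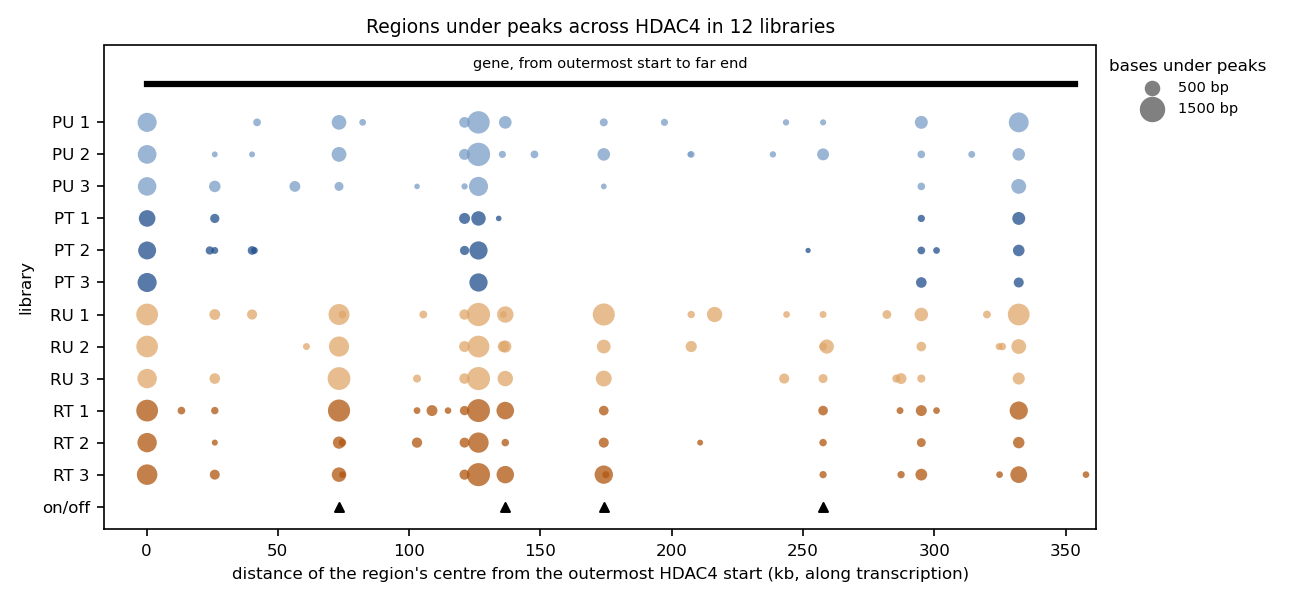
Regions under peaks across HDAC4 by distance from its outermost start (horizontal axis, kb), with a row for each of the 12 libraries (P parental, R resistant, U untreated, T treated), circle areas in proportion to the bases under peaks and triangles at the 4 regions open in 3 of 3 treated resistant and 0 of 3 treated parental libraries. The regions at 73.3 and 174.1 kb have a circle in each row except the 3 treated parental ones, and the start regions at 0.239 and 126.4 kb have one in all 12.

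Counted over all members, a region was scored as gained or lost where it had a peak in 3 of 3 libraries of one group and 0 of 3 of the other, among regions present in at least 3 of the 6 libraries. After oxamate, parental cells lost 3 of 89 member regions (3.37%, against 3.81% of all regions) and gained none (0.483% of all regions). Resistant cells gained 1 of 107 (0.935%, against 0.511%) and lost none (0.59% of all regions). Without oxamate, resistant cells had gained 1 of 104 relative to parental cells (0.962%, against 1.65%) and lost none (1.04% of all regions). Under oxamate they had gained 8 of 96 (8.33%, against 5.82%) and lost none (1.79% of all regions). These shares were near those of all regions, and they carry no p.

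The gains and losses came from 10 different regions in 7 genes, 4 of them in HDAC4, and all 10 lacked a peak in the 3 treated parental libraries, which for 9 of them the scoring itself required. The third region lost in parental cells was at SIRT1, 1.42 kb past its start at chr10:67885780-67886372, with folds of 3.2, 2.73 and 2.82 in untreated parental libraries, no peak in treated parental, 2.52, 3.06 and 2.72 in untreated resistant and 2.68 and 3.02 in 2 of 3 treated resistant libraries. In HAT1, a region 18.6 kb from the start, chr2:171940947-171941270, had a peak in the 3 treated resistant libraries, with folds of 5.18, 3.53 and 3.92, and in none of the other 9. A SIRT2 region 12 kb from the start, chr19:38887264-38888047, was present in 3 untreated and 2 treated resistant libraries with folds of 3.02 to 4.26 and in no parental library. The remaining ones, in HDAC2 (chr6:113936067-113936850), HDAC5 (chr17:44095782-44096246) and HDAC11 (chr3:13507198-13508045), were each present in 2 untreated parental libraries, no treated parental library and 3 treated resistant libraries. All 10 were weak, with folds of 2.52 to 5.28 and a −log10 q of at most 5.25 in any library of the group that had the peak. The groups differed in relative depth and narrowest peak width as given above, and the part of these in the 10 regions was not tested.

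**Figure D4:**
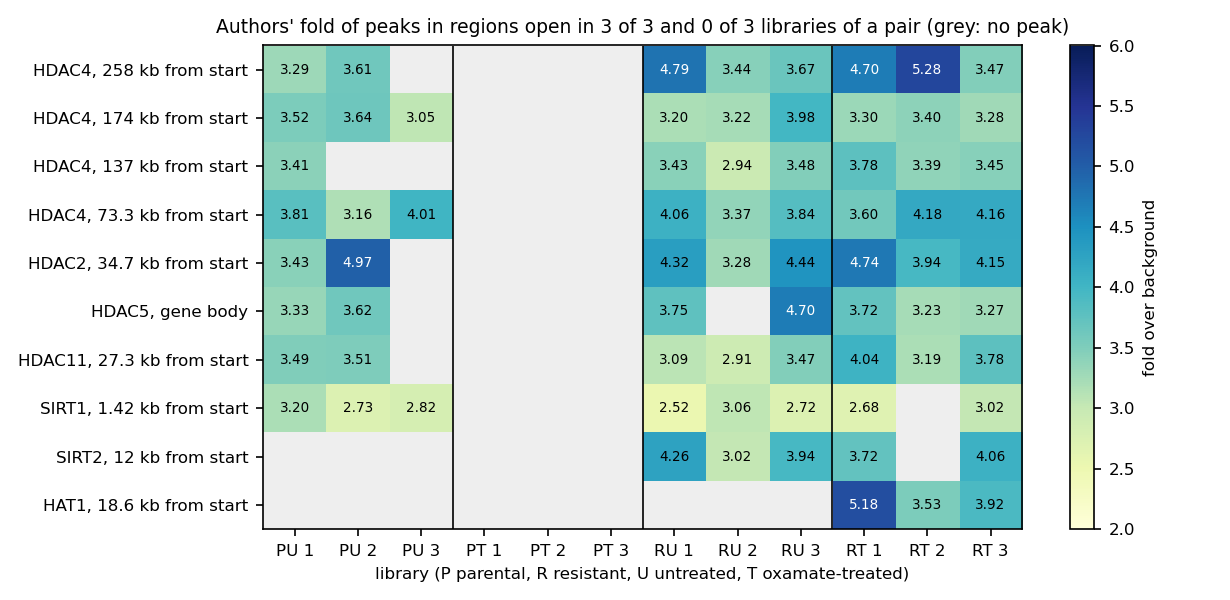
Fold over background of the strongest peak (colour and printed value) in the 10 member regions scored as gained or lost in any comparison, across 12 libraries (P parental, R resistant, U untreated, T treated), with grey where a library had no peak. The 3 treated parental columns are grey throughout, and the HAT1 row has values in the 3 treated resistant libraries alone.

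The other class IIa genes did not pass the test. HDAC5 held 600 to 1561 bp in treated parental and 1723 to 2413 bp in treated resistant libraries, with a scaled log2 difference of 0.40. HDAC9, the longest gene of the set, held 4610 to 6672 bp and 5620 to 9707 bp, with a scaled difference of -0.18. Its widest steady inner region, 2319 bp long and 372.2 kb from its outermost start, was present in 12 of 12 libraries, as were 3 others deep in the gene.

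Of the class I deacetylases, HDAC1 and HDAC2 form the catalytic cores of the Sin3, NuRD and CoREST complexes. HDAC1, HDAC2, HDAC3 and HDAC8 had scaled log2 differences of 0.45, 0.24, 0.24 and 0.39 between resistant and parental cells under oxamate, and none passed the test, with a smallest adjusted p of 0.264. HDAC3 held 2465, 2777 and 2411 bp in untreated parental, 1265, 1641 and 1223 bp in treated parental, 2795, 2363 and 1978 bp in untreated resistant and 2952, 2009 and 2677 bp in treated resistant libraries. Unscaled, its 3 treated parental libraries lay below the other 9. Scaled, they held 2210, 2037 and 1610 bp and overlapped with the untreated resistant libraries at 1998, 2227 and 1743 bp. Scaled, the change with oxamate in parental cells was -0.40 (SE 0.14, limma adjusted p 0.188) and the difference between untreated cells -0.37 (SE 0.14, adjusted p 0.55).

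HDAC2, the close relative of HDAC1, was the class I gene with a region called by rank. The percentile ranks of all 60 member regions present in 12 libraries were compared by limma over all 24148 such regions. Between resistant and parental cells under oxamate 5 of 60 were called (8.33%, against 10.6% of all such regions), and none after oxamate in parental cells (0.447% of all), after oxamate in resistant cells (0.00414%) or between untreated cells (0.0704%), where 11, 0 and 6 of the 60 had an unadjusted p under 0.05. The HDAC2 start region, chr6:113969952-113971602, ranked 54.3, 55.6 and 43 in untreated parental, 11.1, 30.6 and 21.3 in treated parental, 47.2, 53.9 and 45.5 in untreated resistant and 70, 47.3 and 49.4 in treated resistant libraries. Treated parental cells were below the other 3 groups, and resistant cells exceeded them under oxamate by 34.6 percentile points (SE 9.09, adjusted p 0.0358). The call held in 7 of 12 fits with a library left out, with differences of 27.4 to 39.4 and adjusted p of up to 0.131, and was lost without treated parental replicate 1 or 3, untreated resistant replicate 3 or treated resistant replicate 1 or 3. Ranks by −log10 q kept it, at 39.5. The width under peaks there was 888, 1212 and 1401 bp in treated parental and 1585 to 1616 bp in treated resistant libraries. The other class I starts were not called. Their mean ranks in treated parental and treated resistant libraries were 83.4 and 76.5 at HDAC1, 84.8 and 52.9 at HDAC3, and 43.3 and 74.8 at HDAC8.

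None of the class IIb and IV genes was called by covered bases. HDAC6, a cytoplasmic deacetylase of tubulin, held 1204 to 1756 bp over the 12 libraries before scaling. Its scaled log2 difference between resistant and parental cells under oxamate was -0.53 (unadjusted p 0.0148, limma adjusted p 0.106), the lowest of the 31 members. Unscaled, these groups differed little, with 1225, 1207 and 1218 bp in treated parental and 1243, 1204 and 1361 bp in treated resistant libraries. Nearly all of the unscaled bases lay at the HDAC6 start on chromosome X. That start region, chrX:48801318-48802582, covered 1204 to 1245 bp in every library, and its rank was 85.8, 77.4 and 78.5 in untreated parental, 91.1, 88.2 and 83.9 in treated parental, 73.6, 80.2 and 74.7 in untreated resistant and 73.2, 74.1 and 72.7 in treated resistant libraries. The difference under oxamate was -14.4 points (SE 3.8, adjusted p 0.0362), but ranks by −log10 q in place of fold gave 1.37, and the call was lost in 5 of 12 fits with a library left out, those without treated parental replicate 1 or 2 or without any treated resistant library, where the differences ran from -16.3 to -12.7. HDAC10, a polyamine deacetylase, had a scaled log2 difference of 0.46 (unadjusted p 0.0391, adjusted p 0.176) and HDAC11, the class IV enzyme, 0.36 (unadjusted p 0.0498, adjusted p 0.2) in that comparison.

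Of the 7 sirtuins none was called by covered bases. By scaled bases 4 were higher and 3 lower in resistant cells under oxamate. They ran from -0.44 at SIRT4 (limma adjusted p 0.09) to 0.60 at SIRT7 (adjusted p 0.134). Unscaled, all 31 members were higher in resistant cells in that comparison, with a lowest log2 difference of 0.05. SIRT1, the nuclear sirtuin that deacetylates p53 and histones, held 1934, 1914 and 1157 bp in untreated parental, 487, 647 and 1011 bp in treated parental, 3062, 1702 and 1558 bp in untreated resistant and 1591, 1409 and 1947 bp in treated resistant libraries. The treated parental libraries were the 3 lowest before scaling. Scaled, they held 850.6, 803.3 and 1331 bp, and the last of these lay above treated resistant replicate 1 at 1247 bp. The scaled change with oxamate in parental cells was -0.71 (SE 0.22, limma adjusted p 0.127), and the difference under oxamate 0.58 (adjusted p 0.119). SIRT4 and SIRT5, both mitochondrial, held 2889 to 3924 bp and 2398 to 3485 bp before scaling. Scaled, SIRT5 differed by -0.38 between resistant and parental cells under oxamate (unadjusted p 0.0492, limma adjusted p 0.198). SIRT4 changed by 0.34 with oxamate in parental cells (unadjusted p 0.0431, adjusted p 0.292). Before scaling, its window held 3751, 3870 and 2981 bp in untreated and 3217, 3535 and 2889 bp in treated parental libraries. In that comparison all 31 members were lower after oxamate when unscaled, with a highest log2 difference of -0.08.

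SIRT3, the main mitochondrial deacetylase, had a start region called by rank, chr11:235927-237358. It ranked 77.4, 64.4 and 52.3 in untreated parental, 41.3, 45.9 and 50.7 in treated parental, 83, 85.5 and 75.4 in untreated resistant and 82.5, 61 and 81.6 in treated resistant libraries, a difference of 29.1 points between resistant and parental cells under oxamate (SE 8.15, adjusted p 0.0428). The ranges of those 2 groups did not overlap. This call held in 3 of 12 fits with a library left out, with differences of 25.3 to 36.1 and adjusted p of up to 0.152, and the fits that kept it were those without untreated parental replicate 1 or 3 or treated resistant replicate 2. The region also lies within 1 kb of the start of PSMD13, a proteasome subunit gene transcribed away from SIRT3, and the lists do not assign it to either gene.

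Among the acetyltransferases, KAT2B, the GNAT family enzyme also called PCAF, had more bases under peaks in resistant than in parental cells, a difference that passed the test under oxamate and not without it. Its window held 581, 1388 and 534 bp in untreated parental, 378, 386 and 476 bp in treated parental, 2143, 1293 and 2431 bp in untreated resistant and 1985, 1199 and 1441 bp in treated resistant libraries. Untreated parental replicate 2 lay among the resistant libraries, and the other 5 parental libraries lay below all 6 resistant ones. The difference under oxamate was 1.12 (SE 0.27, limma adjusted p 0.0271) and that without oxamate 0.95 (SE 0.27, adjusted p 0.336). Oxamate itself gave -0.36 (adjusted p 0.543) in parental and -0.19 (adjusted p 1) in resistant cells. The call was lost without treated parental replicate 2 or any of the 3 treated resistant libraries, with differences of 1.00 to 1.19 and a largest adjusted p of 0.107.

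Nearly all of the KAT2B window's signal was the region at its start, chr3:20039760-20041846, which contains the sequence with 3 GC boxes printed above. That region covered 581, 870 and 534 bp in untreated parental, 378, 386 and 476 bp in treated parental, 1848, 1293 and 1914 bp in untreated resistant and 1985, 1199 and 1299 bp in treated resistant libraries, with no overlap between parental and resistant cells. The fold of its strongest peak ran the other way in untreated cells, 8.31, 8.69 and 6.47 in parental against 5.61, 5.1 and 5.52 in resistant libraries, and the rank difference between those cells was -42.2 points (SE 12.8, adjusted p 0.251), which did not pass the test. The start was thus wider before scaling, and its strongest peak not higher, in the resistant libraries. The narrowest peak was wider in every resistant than in every parental library, as given above. Its part in the width of the KAT2B start was not tested.

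KAT2A, the GNAT enzyme of the SAGA and ATAC complexes, had a region past its far end called by rank, chr17:42111940-42113057, which lies next to DHX58. It ranked 15, 19.5 and 23.2 in untreated parental, 72.4, 65.5 and 43.5 in treated parental, 21.4, 18.4 and 14.4 in untreated resistant and 25.3, 40.3 and 19.7 in treated resistant libraries. Treated parental cells ranked above the other groups, and the difference of resistant from parental cells under oxamate was -32 points (SE 8.46, adjusted p 0.0363). After oxamate in parental cells the value was 41.2 (SE 8.46, adjusted p 0.0658). The bases under peaks moved in the other direction, to 186, 237 and 710 bp in treated parental libraries from 834, 979 and 821 bp in untreated ones. The call held in 7 of 12 fits with a library left out, with values of -40.5 to -26.0 and adjusted p of up to 0.129, and was lost without treated parental replicate 1 or 2, untreated resistant replicate 3 or treated resistant replicate 1 or 3. Ranks by −log10 q in place of fold gave -19.8 with an adjusted p of 0.162, so that the call was lost there too.

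**Figure D5:**
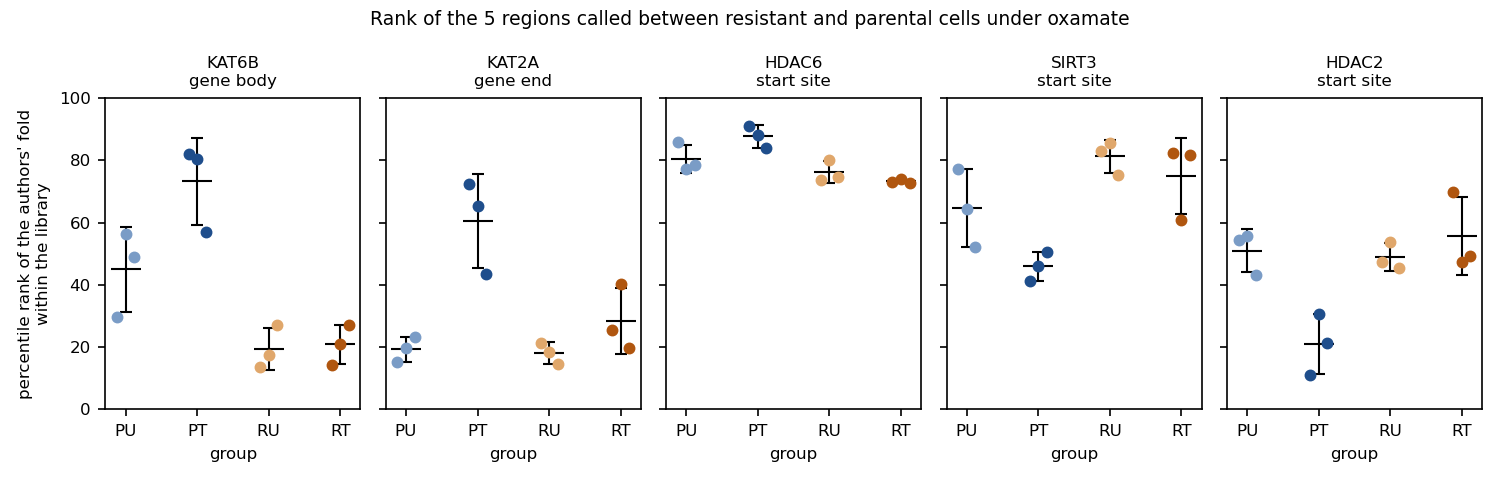
Percentile rank of the fold within each library (vertical axis, 100 the strongest of the regions present in 12 libraries) for the 5 member regions called between resistant and parental cells under oxamate, with a point per library, a bar at the mean and whiskers of 1 SD (n = 3), for untreated and treated parental (PU, PT) and resistant (RU, RT) cells. The KAT6B region ranks 57 to 82.2 in treated parental and 14.3 to 27 in treated resistant libraries, and the HDAC2 start 11.1 to 30.6 and 47.3 to 70.

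The MYST family showed the difference in rank with the smallest adjusted p, in the body of KAT6B, 102 kb from its start at chr10:74926672-74927934. The region ranked 29.6, 56.2 and 49 in untreated parental, 82.2, 80.5 and 57 in treated parental, 13.6, 17.4 and 26.9 in untreated resistant and 14.3, 21.1 and 27 in treated resistant libraries. All 6 resistant libraries lay below all 6 parental ones, and the difference under oxamate was -52.5 points (SE 9.79, adjusted p 0.0132). It was called in 11 of 12 fits with a library left out, from -60.6 to -48.0, and not without treated resistant replicate 1, where the adjusted p was 0.0614. Without oxamate the difference was -25.6 (SE 9.79, adjusted p 0.337). Its covered bases were 1081, 1087 and 1050 bp, then 603, 593 and 832 bp, 1043, 828 and 930 bp, and 827, 556 and 595 bp, with lower values in the treated than in the untreated libraries of parental and of resistant cells. By covered bases none of the 5 MYST genes was called in any comparison, and their differences ran from -0.36 at KAT6B to 0.30 at KAT5, the value after oxamate in resistant cells (SE 0.14, adjusted p 1), where NCOA2 followed with 0.34 (SE 0.17, adjusted p 1) and HAT1 with 0.40 (SE 0.20, adjusted p 1).

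EP300 and CREBBP, the paralogous coactivators that acetylate histones at enhancers, differed by -0.04 and 0.08 in scaled log2 bases between resistant and parental cells under oxamate. Their largest differences by that measure, -0.38 and -0.28, were between untreated cells and after oxamate in resistant cells. Both had their start open in 12 of 12 libraries, with median ranks of 40.5 and 61.8. Under oxamate the rank of the EP300 start differed by -33.8 points between resistant and parental cells (SE 10.2, limma adjusted p 0.0549). That of the CREBBP start differed by 20.7 (SE 12.2, adjusted p 0.275), and neither passed the test. The p160 genes NCOA1, NCOA2 and NCOA3 had scaled log2 differences of 0.07, 0.37 and -0.05 under oxamate, with a smallest adjusted p of 0.183.

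The wider set of histone acetylation genes, 65 genes for corepressor subunits, acetyltransferase complex subunits, readers of acetyl-lysine and suppliers of acetyl-CoA, was read in the same way. Of the 64 tested, 8 were called between resistant and parental cells under oxamate (12.5%, against 7.14% of all genes, with 7 higher and 1 lower), 2 after oxamate in parental cells (3.12%, against 1.47%, both lower), and none after oxamate in resistant cells or between untreated cells, where 1 and 9 had an unadjusted p under 0.05. The median difference of the list was -0.05, 0.05, 0.06 and -0.09 in this order. MTA1, a subunit of the NuRD complex, held 1756, 2278 and 998 bp in untreated parental, 722, 824 and 799 bp in treated parental, 3623, 2246 and 2274 bp in untreated resistant and 3706, 1761 and 2476 bp in treated resistant libraries, a difference of 1.00 under oxamate (SE 0.21, adjusted p 0.0124).

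BRD1, a bromodomain subunit of MYST complexes, fell by 1.81 on the log2 scale with oxamate in parental cells (SE 0.42, adjusted p 0.0477), from 1578, 1613 and 1169 bp to 77, 236 and 654 bp, and was higher in resistant cells under oxamate by 1.78 (SE 0.42, adjusted p 0.0228). MLLT1, a YEATS domain reader, was higher there by 0.73 (SE 0.17, adjusted p 0.0214). MIER1, a corepressor that binds HDAC1 and HDAC2, was the gene called lower, by -0.77 (SE 0.16, adjusted p 0.0117), and its unscaled bases, 2307, 2102 and 2621 bp in treated parental and 2024, 1763 and 2469 bp in treated resistant libraries, overlapped. RCOR2 (2.09) and BRD3 (0.58) were also called higher there, were outside the 6 that the naming rule allowed and were named after their values were seen.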

How the data were processed

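ATAC-seq had been run on nuclei of 12 samples of MIAPaCa2 cells. The authors aligned the reads with Bowtie2 2.1.0 to hg38, discarded mitochondrial reads, duplicates and reads with several matches, and ran MACS2 on each library by itself, in its BAMPE mode for read pairs with the broad setting. The MACS2 version and cutoff are not given in the sources used here. The deposited peak lists give a score (10 times −log10 q, rounded down), a fold over background (a ratio) and −log10 p and q values, with a smallest −log10 q of 1. They hold no read counts, so depth is known only as the estimate in the report, and the number of libraries limits the precision.

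Peaks on the 22 autosomes and X were used (0.892% of 677901 peaks lay elsewhere). Gene spans and 250-base upstream sequences came from RefSeq tables of GRCh38.p14. Groups came from the sample titles. Bases under peaks per window, over genes with a peak in at least 3 libraries, and percentile ranks of the authors' fold were fitted with limma 3.58.1 (trend, 4 groups in a single fit) in R 4.3.3, with Benjamini-Hochberg adjustment over all features and a threshold of 0.05. Python 3.11.15, numpy 2.4.6 and pandas 2.3.3 made the tables. On simulated data for resistant against parental cells under oxamate, the fit over 32585 genes recovered 58% of genes changed by 1 and 92% of those changed by 2 on the log2 scale. The rank fit over 24148 regions recovered 3% of regions moved by 15 points and 13% of those moved by 30. Each simulation changed 100 features per size, with the genes drawn from those with a high mean of covered bases, and called 158 genes and 16 regions. The real comparison called 2327 genes and 2562 regions, so these recovered shares are not the power of the real fits. Full statistics were given for members called, or for the 3 with the largest moderated t where fewer were called, for regions open in 3 of 3 and 0 of 3 libraries, and for at most 6 called genes of the wider list, of which some are not reported here. Members and lists were chosen with earlier results of these data known. Alternatives were unscaled bases, a −log10 q of at least 3, a pseudocount of 500 bp, no filter on low values, a replicate block, ranks by −log10 q, peaks covering at least 50% of a region, and each library left out.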

Additional observations from a re-analysis of the deposited data

How the results depend on the processing

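Scaling and the peak threshold moved the counts most. With unscaled covered bases 3 members were called after oxamate in parental cells (HDAC3, SIRT1 and HDAC7, 9.68%, against 7.13% of all genes) and 17 between resistant and parental cells under oxamate (54.8%, against 30% of all genes). When a −log10 q of 3 or more was required of peaks, these counts were 1 (HDAC7, 3.23%, against 6.4% of all genes) and 14 (45.2%, against 33.2%), of which 7 were higher and 7 lower, HDAC4 reversed to -0.03, and the HAT1 region gained in resistant cells was no longer counted, leaving 0. With peaks at least as wide as 124 bp, an alternative chosen after seeing the data, HDAC7 was the 1 member called after oxamate in parental cells, beside 516 genes in all. Requiring peaks to cover at least 50% of a region gave 0 regions for oxamate in resistant cells, 4 between untreated cells and 15 between treated cells. Ranking by −log10 q reversed the HDAC6 start to 1.37 and took the KAT2A region to -19.8 (adjusted p 0.162).

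Over all pairs of groups together, replicate numbers did not pair the libraries. The correlation of same-numbered deviations had a median of -0.017 and ran from -0.14 to 0.167 by covered bases. By rank the median was -0.001 and the range -0.166 to 0.285. Same-numbered untreated and treated resistant libraries correlated positively, at 0.134, 0.167 and 0.0456 by covered bases and 0.209, 0.285 and 0.0436 by rank, of which the last of each stayed under 0.1. Other-numbered pairs of these 2 groups ran from -0.173 to 0.0645 by covered bases and from -0.259 to 0.0946 by rank. With the replicate block, 1 member was called after oxamate in parental cells (HDAC7, beside 316 genes in all) and 2 regions by rank between treated cells (KAT6B and KAT2A), where HDAC2, SIRT3 and HDAC6 had adjusted p of 0.0544, 0.0614 and 0.0536 at the same differences, and it moved no other count past 1.5 times. Leaving out each library gave 0 to 1 members after oxamate in parental cells and 1 to 4 between treated cells by covered bases, while the genes called in all ran from 65 to 850 and from 664 to 2515. By rank it gave 0 to 1 and 0 to 7 regions for the same comparisons, of 0 to 273 and 270 to 2767 regions called in all. Regions open in 3 of 3 and 0 of 3 libraries numbered 3 to 12 for oxamate in parental cells, 2 to 4 in resistant cells, 2 to 4 between untreated cells and 9 to 16 between treated cells. A count over fewer libraries asks less of a region, so these can only grow. In all, 137 counts stayed within 1.5 times and 36 did not, and of the values for single genes and regions 84 kept their call, 38 lost it and 2 reversed. HDAC7 kept its call between treated cells under all 6 alternatives other than leaving out a library (1.13 to 2.07), as did KAT2B (0.80 to 1.80), and HDAC4 under 3. The cause of these shifts was not tested.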
